A study of Mus musculus with 6 samples.

Results

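Rab proteins form the largest branch of the Ras-like small GTPases. The 53 genes described here are the Rab GTPase genes of the deposited count table, taken by their symbols, without Rab3a to Rab3d, Rab27a and Rab27b, which are best known for regulated exocytosis. They were chosen by name alone from 21652 listed genes, with no measured value used. Of the 53, 40 had enough footprints to be tested and 13 did not. The mouse line MIN6, which secretes insulin and derives from a pancreatic beta-cell tumour, carried 1 of 2 guides, and each genotype has 3 ribosome profiling libraries: sgLTN1 is directed at Ltn1, which encodes a ubiquitin ligase of ribosome quality control, and sgNT is read here as a non-targeting control. The labels give no other treatment, time or allele, do not say whether the cells were clones or pools, and name no separate cultures behind the libraries of a genotype. The spread that enters each p-value is therefore that of these libraries, and it may be technical.

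Each Rab cycles between a GDP-bound form kept soluble in the cytosol and a GTP-bound form on a membrane, where it recruits tethers, motors and other effectors. Exchange factors (GEFs) load GTP, GTPase-activating proteins (GAPs) end the signal, and prenyl groups added after delivery by Rab escort proteins anchor the Rab to its membrane. Each member marks its own set of membranes, from the endoplasmic reticulum (ER) to the lysosome, and in beta cells this traffic supplies the granules that store insulin. Ribosome profiling counts the mRNA fragments that ribosomes protect, so a footprint count reflects both the amount of an mRNA and its occupancy by ribosomes. RNA-seq of these cells was not used here, so the 2 contributions cannot be told apart, nor can fewer expressing cells and less RNA per cell.

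The libraries held between 4373467 and 11198735 counts. Footprints on Ltn1, the targeted gene, averaged 143 ± 1.84 CPM with sgNT and 67.2 ± 3.67 CPM with sgLTN1 (mean ± SD, n = 3). CPM are counts scaled to library size. The log2 fold change, sgLTN1 over sgNT throughout, was -1.09 (SE 0.07), and the quasi-likelihood test of edgeR gave it an adjusted p of 9.24e-05. The 12 beta-cell markers together took 101757 to 112353 CPM in sgNT and 100286 to 121783 CPM in sgLTN1, although Slc2a2, the glucose transporter GLUT2, lay under 1 CPM at 0.738 and 0.747. Of 11 tested beta-cell markers, 4 did not overlap between the genotypes (36.4%, beside 20.2% of all tested genes), 3 higher and 1 lower in sgLTN1. In edgeR's test 2 were higher at an unadjusted p under 0.05, beside 8.00% of all genes, and the lowest adjusted p was 0.169. Markers of other islet cells, mostly Gcg, summed to 586 to 617 CPM in sgNT and 583 to 663 CPM in sgLTN1. Of the 5 tested ones, 3 had a log2 fold change above 0 and 2 below, down to -0.19, with a median of 0.01. Sst (30.4 ± 1.42 and 43.3 ± 3.65 CPM, log2 fold change 0.50) and Ppy (3.30 ± 1.07 and 6.09 ± 1.02 CPM, 0.82) were higher in each sgLTN1 library than in every control. These 2 were 40% of the tested ones, beside 10.1% of all genes in that direction. Neither passed the adjusted threshold in edgeR's test (lowest adjusted p 0.0620), and their part in the values below was not tested. All 9 acinar and duct markers averaged under 1 CPM, with sums of 2.35 to 3.02 CPM in sgNT and 1.53 to 6.41 CPM in sgLTN1, and 7 stromal and immune markers summed to 11.1 to 15.1 and 10.9 to 14.8 CPM. At an adjusted p under 0.05 the comparison called 23 of the 12782 tested genes (0.180%), with 11 up (0.0861%) and 12 down (0.0939%) in sgLTN1. Scaling by total counts gave 8 higher and 34 lower, and removing the trend of fold change with abundance gave 7 and 13. Leaving out sgLTN1 library 3 gave 191 up and 142 down, and leaving out any other single library gave 0 to 2 up and 4 to 10 down.

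None of the 40 tested Rab genes passed that threshold (0 up, beside 0.0861%, and 0 down, beside 0.0939%; 0.180% for both), and the smallest adjusted p was 0.131, for Rab18. At an unadjusted p under 0.05 in the same edgeR test there were 4 members, which is 10% of those tested, beside 15.6% of all tested genes. All 4, Rab18, Rab8a, Rab43 and Rab37, were lower in sgLTN1, beside a background of 7.56% for lower genes. No Rab gene was higher at this level, while 8.00% of all genes were. This split was not kept in every alternative: without sgNT library 2 there were 2 higher and 2 lower of 39. DESeq2 on the same counts gave an adjusted p to only 5 of the 53 Rab genes and called 0 of these. It had 2 of 53 at an unadjusted p under 0.05, beside 5.41% of all genes. The share of Rab genes in either direction was below that of the whole table. In edgeR's test the share of lower ones was slightly above the 7.56%, but it rested on 4 genes. Of these, Rab43 had an unadjusted p of 0.326 in that test without sgNT library 2.

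**Figure D1:**
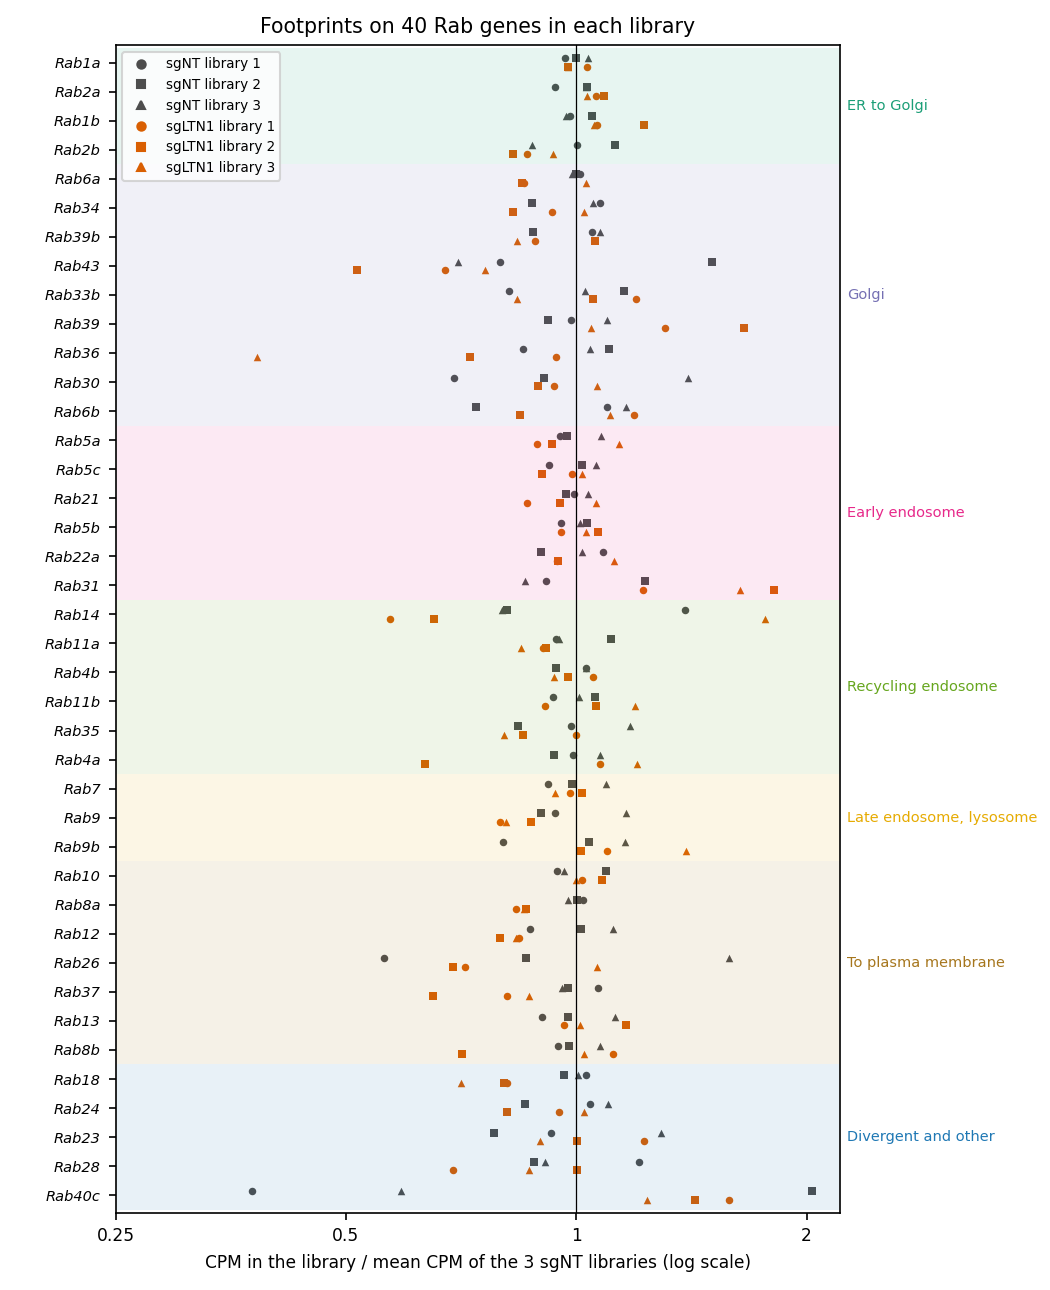
CPM of the 40 tested Rab genes in each of the 6 libraries, divided by the gene's mean over the 3 sgNT libraries (log axis). Rows are ordered by role and within a role by counts, grey symbols are sgNT and orange symbols sgLTN1, and the shape gives the library number. Rab14, Rab43, Rab26 and Rab40c spread widely within a genotype, while Rab1a stays within 1.07-fold from its lowest to its highest library.

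The direction over the set was slightly downward, within the spread between libraries. Log2 fold changes were above 0 for 14 of 40 members (35%) and below 0 for 26, with a median of -0.06, and they ran from -0.72 (Rab43) to 0.57 (Rab31). Over all tested genes 47.3% were above 0 and the median was -0.02. Single libraries moved the members' median: it was 0.01 without sgNT library 3, 0.0019 without sgLTN1 library 2 and -0.11 without sgLTN1 library 3. Taken in each library as log2 ratios to the sgNT mean, the members' medians overlapped between the genotypes. They were -0.065, -0.029 and 0.051 in sgNT and -0.064, -0.099 and 0.032 in sgLTN1. In 7 members the values of the genotypes did not overlap (17.5%, beside 20.2% of all tested genes). Of these, Rab1b was higher in sgLTN1, and Rab18, Rab8a, Rab37, Rab12, Rab9 and Rab11a were lower, beside 10.1% of all genes in each direction.

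The size of change that the data leave possible differed by member. The 95% interval of the log2 fold change, taken for each gene alone, lay within a 1.5-fold change in either direction for 24 of the 40 genes and reached past it for the other 16. Intervals were narrowest for Rab1a, from -0.15 to 0.13, and widest for Rab40c, from -0.69 to 1.31.

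**Figure D2:**
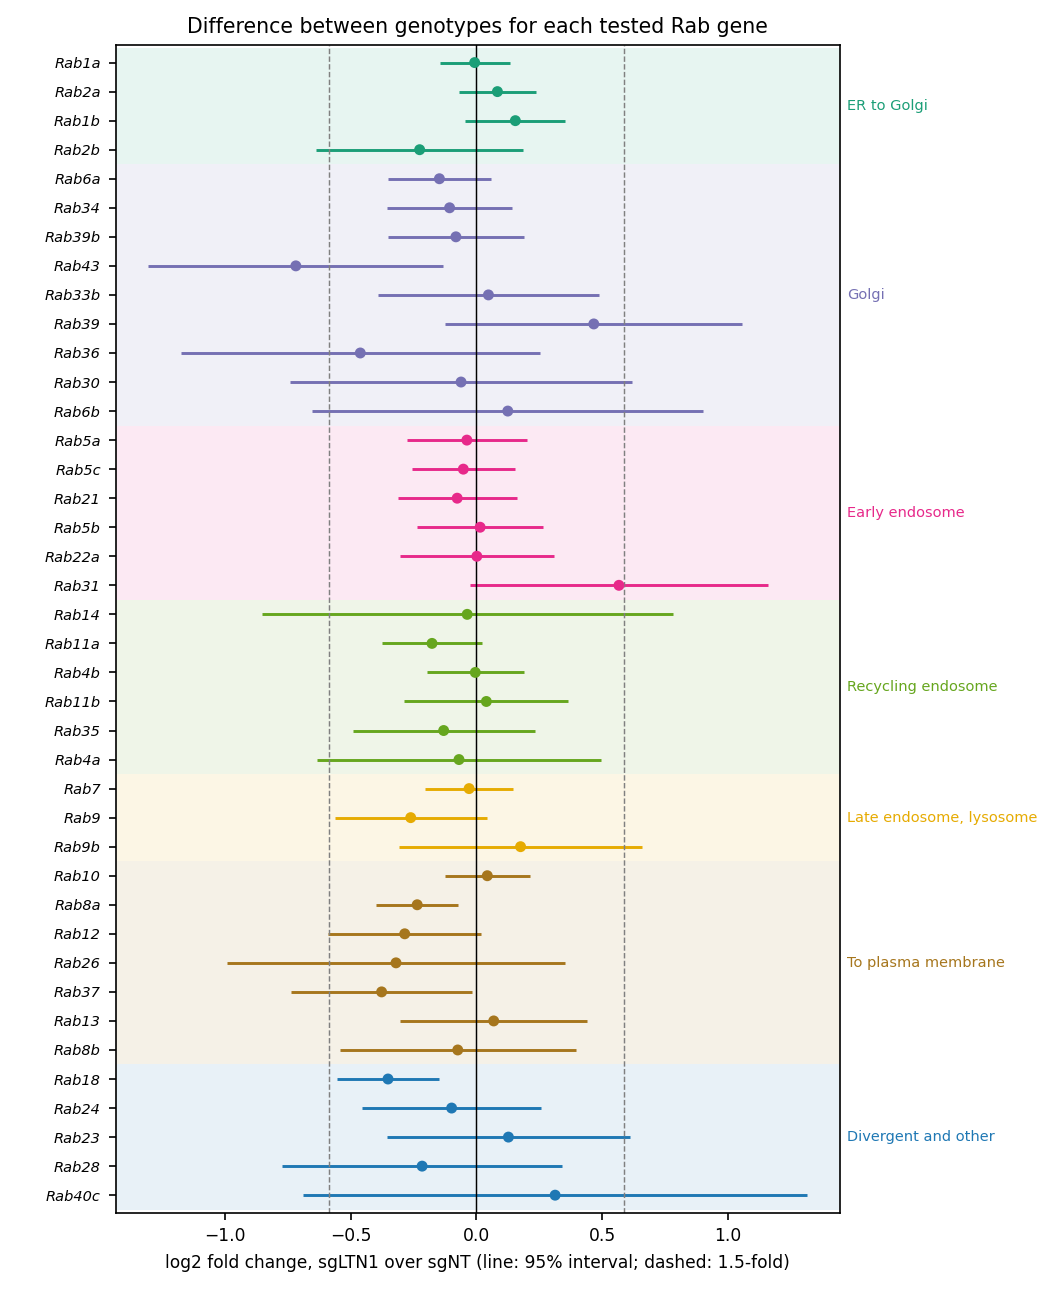
Log2 fold change of sgLTN1 over sgNT for each of the 40 tested Rab genes, as a point with its 95% interval, grouped by role. Dashed lines mark 1.5-fold in either direction. The intervals of Rab18, Rab8a, Rab43 and Rab37 lie below 0, none lies wholly above 0, and 24 stay between the dashed lines.

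Traffic between the ER and the Golgi is run by Rab1, which tethers ER-derived vesicles, and Rab2, which acts at the Golgi and its intermediate compartment. Rab1a (ENSMUSG00000020149.18) read 146, 151 and 157 CPM in sgNT libraries 1 to 3 and 156, 147 and 148 CPM in the 3 sgLTN1 libraries. The groups overlapped fully and both averaged 151 CPM (log2 fold change -0.0069, SE 0.06, adjusted p = 0.980). For Rab2a the values were 87.8, 96.6 and 96.2 CPM in sgNT and 99.3, 102 and 96.6 CPM in sgLTN1 (log2 fold change 0.08, 95% interval -0.07 to 0.24). Rab1b was the only tested member whose sgLTN1 values all lay above the sgNT values. Its CPM values were 37.4, 39.8 and 36.9 against 40.4, 46.6 and 40.1 (log2 fold change 0.15, SE 0.09, adjusted p = 0.444; 0.091 without sgLTN1 library 2). Rab2b averaged 6.17 ± 0.767 and 5.39 ± 0.330 CPM (n = 3 each), with overlapping values. Summed over the 4 genes, the ER to Golgi Rabs took 278, 294 and 295 CPM in sgNT and 302, 301 and 290 CPM in sgLTN1.

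Golgi Rabs guide vesicles within the Golgi and from endosomes back to it. Rab6a, which recruits golgins and the dynein adaptor BICD, read 46.1, 45.5 and 44.9 CPM in sgNT and 38.9, 38.7 and 46.8 CPM in sgLTN1. The sgLTN1 libraries 1 and 2 were low and library 3 lay above every control, and the log2 fold change was -0.15 (SE 0.09, adjusted p = 0.484). It was -0.22 without sgLTN1 library 3 and -0.087 without sgLTN1 library 2. Rab34, known for the Golgi and the primary cilium, averaged 29.7 ± 3.24 and 27.5 ± 2.94 CPM, and Rab39b, mutated in an X-linked intellectual disability, 21.9 ± 2.35 and 20.2 ± 2.55 CPM (n = 3 each). The values of both overlapped between the genotypes.

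Rab43 (ENSMUSG00000030055.17) had the lowest fold change of all tested members. It read 10.5, 19.9 and 9.28 CPM in sgNT and 8.94, 6.84 and 10.1 CPM in sgLTN1. A single control, library 2, stood at about the sum of the other 2, and the other controls overlapped sgLTN1. The log2 fold change of -0.72 (SE 0.27, adjusted p = 0.229) became -0.21 without sgNT library 2, with an unadjusted p of 0.326 in edgeR's test.

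The scarcer Golgi members were measured with less precision. Rab39 had a log2 fold change of 0.47 (SE 0.27, adjusted p = 0.429), from 2.52, 2.35 and 2.80 CPM in sgNT to 3.34, 4.23 and 2.67 CPM in sgLTN1. Rab36 went the other way at -0.46 (SE 0.32, adjusted p = 0.543), with 2.29, 2.97 and 2.80 CPM against 2.53, 1.95 and 1.03 CPM. Library 3 of sgLTN1 overlapped the controls for Rab39 and held only 5 counts for Rab36, whose value was -0.27 without that library and -0.76 without sgLTN1 library 1. Rab39 was at 0.30 without sgLTN1 library 2. Rab33b, which binds the autophagy protein ATG16L1, Rab30 and Rab6b lay between -0.06 and 0.12. Summed over 11 genes, Golgi Rabs took 125, 126 and 127 CPM in sgNT and 112, 110 and 120 CPM in sgLTN1, without overlap. No test was made on sums over members.

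Early endosomes are marked by Rab5, whose 3 paralogues promote fusion of incoming vesicles through EEA1 and other effectors. Rab5a read 31.9, 32.5 and 36.0 CPM in sgNT and 29.8, 31.2 and 38.0 CPM in sgLTN1, so the sgLTN1 values enclosed those of the controls (log2 fold change -0.04, 95% interval -0.28 to 0.20). Rab5b averaged 15.6 ± 0.610 and 15.8 ± 0.874 CPM and Rab5c 31.9 ± 2.31 and 30.9 ± 1.91 CPM (n = 3 each). The share of Rab5a in all Rab5 counts, without correction for length, was 41.4% ± 1.05 and 41.3% ± 2.47. Rab21, which carries integrins through endosomes, had a log2 fold change of -0.08, and Rab22a 0.0018.

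Rab31, a relative of Rab22a that works between the Golgi and endosomes, had the highest fold change of the tested members. Its values were 2.29, 3.09 and 2.16 CPM in sgNT and 3.07, 4.56 and 4.11 CPM in sgLTN1. The lowest sgLTN1 library fell just below the highest control. The log2 fold change was 0.57 (SE 0.27, adjusted p = 0.343), on 10 to 42 counts per library.

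Recycling Rabs return receptors from endosomes to the surface, Rab4 by a fast route and Rab11 through the recycling endosome. Rab11a read 43.8, 51.6 and 44.2 CPM in sgNT and 42.1, 42.5 and 39.5 CPM in sgLTN1, lower in each sgLTN1 library than in every control but by a small margin (log2 fold change -0.18, SE 0.09, adjusted p = 0.376; -0.075 without sgNT library 2). Its paralogue Rab11b averaged 9.83 ± 0.617 and 10.4 ± 1.39 CPM. Rab4b lay at 37.1 ± 1.93 and 36.7 ± 2.22 CPM (log2 fold change -0.0044, 95% interval -0.20 to 0.19). Rab35, which acts in fast recycling and cytokinesis, and Rab4a overlapped between the genotypes as well, at -0.13 and -0.07.

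Rab14 (ENSMUSG00000026878.18), which acts between the Golgi and endosomes, varied more within each genotype than between them. It read 164, 95.9 and 94.5 CPM in sgNT and 67.4, 77.0 and 208 CPM in sgLTN1. The highest library and the lowest were both sgLTN1, and the second highest was sgNT library 1. The means were 118 ± 39.5 and 118 ± 78.7 CPM (n = 3 each), and the fold change was near 0 on the log2 scale (-0.04, SE 0.37, adjusted p = 0.983). Without sgLTN1 library 3 the value became -0.69 (adjusted p = 0.0783), while it became 0.28 without sgNT library 1, 0.26 without sgLTN1 library 1 and 0.21 without sgLTN1 library 2. From lowest to highest library Rab14 spanned 3.09-fold, as no other tested member above 10 CPM did, and only 9 of the 2581 genes that averaged at least 50 CPM spanned 3-fold or more. Its biological coefficient of variation, 31.1%, ranked 8 among those 2581 genes, beside a median of 8.34% over the tested Rab genes and 8.39% over all tested genes. What sets the Rab14 count apart in those libraries was not tested.

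Rab14 decided the sum of its group. The recycling Rabs together took 271, 208 and 205 CPM in sgNT and 174, 179 and 310 CPM in sgLTN1. With Rab14 left out, the other 7 took 107, 112 and 111 CPM against 106, 102 and 102 CPM, which did not overlap by a narrow margin. Rab14 was chosen for leaving out after its values were seen. Of the other 7, only Rab11a did not overlap on its own, and the sum without Rab11a was not taken.

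**Figure D3:**
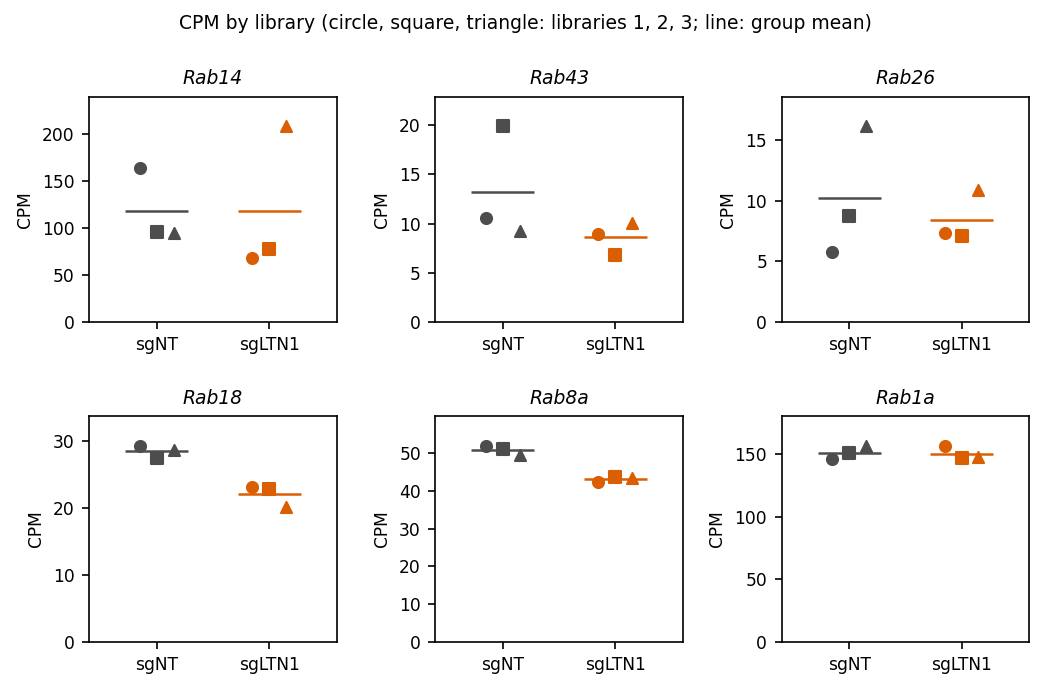
CPM of 6 Rab genes in each library, on axes that start at 0, with sgNT in grey, sgLTN1 in orange and a line at each group mean. Rab14 is high in sgNT library 1 (circle, 164 CPM) and sgLTN1 library 3 (triangle, 208 CPM), Rab43 in sgNT library 2 and Rab26 in sgNT library 3, whereas the libraries of Rab18 and Rab8a separate by genotype and those of Rab1a do not.

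Late endosomes and lysosomes depend on Rab7, which recruits the motor adaptor RILP and the HOPS tether, and on Rab9, which returns mannose 6-phosphate receptors to the Golgi. Rab7 read 86.9, 93.4 and 103 CPM in sgNT and 92.7, 96.2 and 88.6 CPM in sgLTN1, with every sgLTN1 value inside the range of the controls (log2 fold change -0.03, 95% interval -0.20 to 0.14). Rab9 read 12.4, 11.9 and 15.3 CPM against 10.5, 11.5 and 10.7 CPM, which did not overlap (-0.26, SE 0.14, adjusted p = 0.394; -0.14 without sgNT library 3). The paralogue Rab9b pointed the other way, at 3.44, 4.45 and 4.96 CPM against 4.69, 4.34 and 5.96 CPM (0.18, SE 0.22), with overlap. Of all counts on Rab9 and Rab9b, the share of Rab9b was 21.7%, 27.3% and 24.5% in sgNT and 31.0%, 27.4% and 35.8% in sgLTN1. The gap between sgNT library 2 and sgLTN1 library 2 was small beside the spread within each genotype, and these counts are not corrected for length.

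Delivery to the plasma membrane is served by Rab8, Rab10 and Rab13, and Rab26 and Rab37 sit on secretory granules. Rab8a (ENSMUSG00000003037.17), which acts in delivery to the surface and to the primary cilium, read 52.0, 51.1 and 49.6 CPM in sgNT and 42.5, 43.8 and 43.6 CPM in sgLTN1. All sgLTN1 libraries lay below all controls, with little spread in either group, and the means were 50.9 ± 1.22 and 43.3 ± 0.667 CPM (n = 3 each). The log2 fold change was -0.24 (SE 0.07, 95% interval -0.40 to -0.07), and the adjusted p of 0.180 did not pass. Its paralogue Rab8b averaged 5.82 ± 0.393 and 5.53 ± 1.24 CPM, and overlapped.

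Rab10, which moves the glucose transporter GLUT4 to the surface in fat cells, gave no such separation. It read 94.0, 109 and 96.0 CPM in sgNT and 101, 108 and 99.7 CPM in sgLTN1 (0.04, 95% interval -0.13 to 0.21). Rab37 (ENSMUSG00000020732.14) read 9.63, 8.78 and 8.63 CPM in sgNT and 7.31, 5.86 and 7.81 CPM in sgLTN1 (log2 fold change -0.38, SE 0.16, adjusted p = 0.296; -0.25 without sgLTN1 library 2). Rab12, a substrate of the kinase LRRK2, read 10.1, 11.8 and 12.9 CPM against 9.75, 9.23 and 9.66 CPM (-0.28, SE 0.14, adjusted p = 0.345). Both genes were lower in each sgLTN1 library than in every control. Rab26 varied most in this group, with 5.73, 8.78 and 16.2 CPM in sgNT and 7.31, 7.06 and 10.9 CPM in sgLTN1, and Rab13, known from tight junctions, averaged 7.11 ± 0.798 and 7.44 ± 0.727 CPM.

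Among the divergent members, Rab18 had the smallest p of all tested Rab genes. Rab18 (ENSMUSG00000073639.7) is found on the ER and on lipid droplets, and its loss causes Warburg Micro syndrome. Its footprints read 29.3, 27.5 and 28.7 CPM in sgNT and 23.1, 22.9 and 20.1 CPM in sgLTN1. The groups were clearly apart, at 28.5 ± 0.953 and 22.1 ± 1.66 CPM (n = 3 each). The log2 fold change was -0.35 (SE 0.09, 95% interval -0.56 to -0.15), with an unadjusted p of 0.00301 and an adjusted p of 0.131 in edgeR's test. In 13 alternative analyses, leaving out each library included, the value ran from -0.43 to -0.30, the unadjusted p from 8.56e-04 to 0.0384 and the adjusted p, where given, from 0.0548 to 0.440, so the difference was lower in all 13 and past the threshold in none.

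Other divergent members overlapped between the genotypes. Rab24, an atypical Rab linked to autophagy, averaged 9.23 ± 1.16 and 8.57 ± 0.993 CPM, Rab23, a regulator of Hedgehog signalling, 6.18 ± 1.63 and 6.44 ± 1.04 CPM, and Rab28, known from photoreceptors, 3.79 ± 0.688 and 3.24 ± 0.593 CPM (n = 3 each). Rab40c, which carries a SOCS box and serves a ubiquitin ligase, read 0.688, 3.71 and 1.08 CPM in sgNT and 2.89, 2.61 and 2.26 CPM in sgLTN1, on 3 to 32 counts per library. The controls ranged on both sides of sgLTN1. Over its 8 genes this group summed to 52.0, 48.7 and 52.6 CPM in sgNT and 46.4, 44.5 and 42.9 CPM in sgLTN1, without overlap. Of 7 role groups, the Golgi and divergent groups were the 2 whose sums did not overlap, where 20.2% of single tested genes did not. In each, the full separation was lost when 1 gene was left out. Without Rab43 the Golgi sums were 115, 106 and 118 CPM against 103, 103 and 110 CPM, and without Rab18 the divergent sums were 22.7, 21.3 and 23.9 CPM against 23.3, 21.6 and 22.8 CPM, both with overlap. The Golgi sums of sgLTN1 libraries 1 and 2 still lay below every control without Rab43. Rab43 and Rab18 were chosen for leaving out after the values were seen.

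The 13 members that were not tested held 2 to 51 counts each over all 6 libraries. They were Rab7b (51 counts), Rab17 (41), Rab15 (39), Rab40b (38), Rab32 (23), Rab19 and Rab44 (17 each), Rab25 and Rab29 (15 each), Rab20 (14), Rab33a and Rab42 (13 each) and Rab38 (2). Several of these are known from other tissues: Rab17 and Rab25 from polarised epithelia, and Rab32 and Rab38 from melanosomes. Rab38 had no count in the 3 sgNT libraries, which allows up to 0.180 CPM over the group, and 2 counts in sgLTN1, so no fold is given. These limits cover counting error only.

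All members together took 0.112%, 0.115% and 0.116% of the counts in sgNT and 0.102%, 0.0994% and 0.115% in sgLTN1. Without Rab14, left out after its values were seen, the shares were 0.0959%, 0.105% and 0.107% against 0.0955%, 0.0921% and 0.0947%. These were apart by very little at the nearest libraries. The exocytic Rabs left out by the rule took 0.0190%, 0.0193% and 0.0201% against 0.0167%, 0.0171% and 0.0178%. Shares use plain totals, and with that scaling the median log2 fold change was -0.09 over all tested genes and -0.13 over the tested Rab genes.

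All 4 tested exocytic Rabs were below 0, with a median of -0.13, where 47.3% of all tested genes were above 0. Rab27a averaged 26.5 and 23.7 CPM (-0.17, SE 0.09), Rab3a 123 and 115 CPM (-0.10, SE 0.06) and Rab3b 8.36 and 7.13 CPM (-0.23, SE 0.18). Of the 2 not tested, Rab3c overlapped and Rab27b, on 30 counts in all, went the other way. Rab27b read 0, 0.495 and 0.647 CPM in sgNT and 1.08, 0.652 and 1.03 CPM in sgLTN1. Of 25 tested Arf and Sar GTPase genes, which govern coat assembly, 9 were above 0 and the median was -0.05. The smallest p there belonged to Arf2 (-0.32, SE 0.11, adjusted p = 0.210), Arf4 (-0.15, SE 0.07) and Arl6, a component of ciliary traffic (-0.42, SE 0.18). None of these genes passed over all genes.

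**Figure D4:**
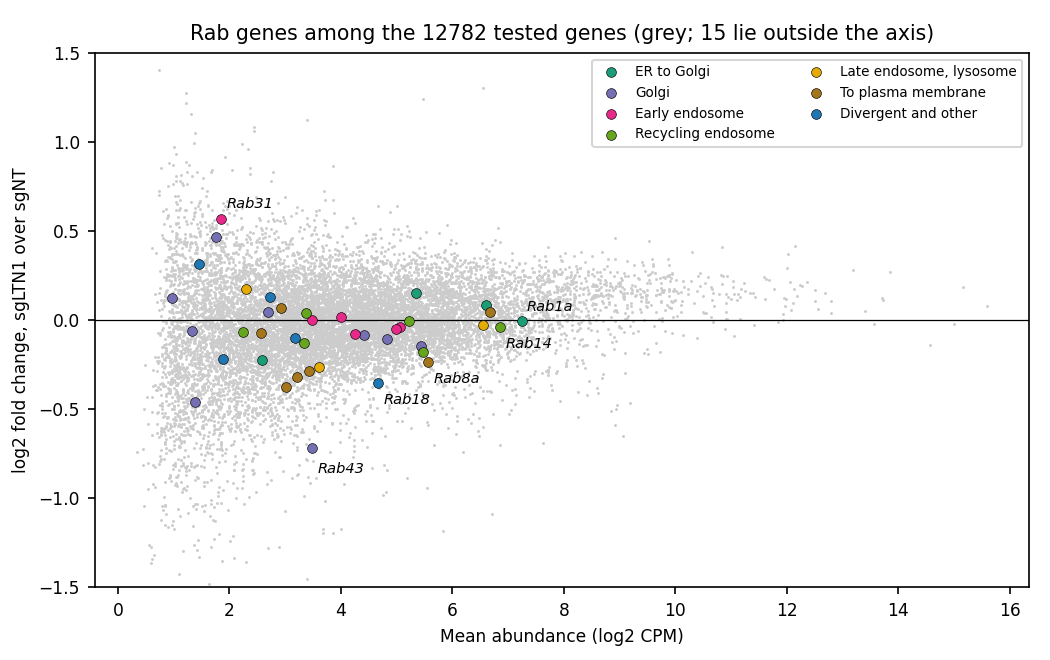
Log2 fold change of sgLTN1 over sgNT against mean abundance in log2 CPM, with the 12782 tested genes in grey (15 lie outside the axis) and the 40 tested Rab genes coloured by role. The Rab genes lie within the grey cloud, with Rab43 and Rab18 toward its lower side and Rab31 toward its upper side.

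Fold changes in these libraries moved with abundance, and the Rab genes were set beside genes of like abundance. Between 4 and 6 on the log2 CPM scale, the 12 Rab genes had a median of -0.08, with 2 above 0, where all 3825 genes had -0.0048. Between 6 and 8, 5 Rab genes had a median of -0.0069 and all genes 0.04. The 16 Rab genes between 2 and 4 had -0.09, beside -0.05, and the 7 Rab genes under 2 had 0.12, beside -0.11. With the abundance trend removed, the median of the tested Rab genes was -0.05, with 16 of 40 above 0, and that of all genes 0.0021.

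Genes that serve the Rab cycle were listed by function. None of the 7 tested genes for delivery and prenylation passed the threshold, beside 0.180% of all genes. Of the 7, 2 were above 0 (28.6%, beside 47.3% of all genes). Chml and Chm, which encode the 2 escort proteins, had log2 fold changes of 0.32 (SE 0.17) and -0.16 (SE 0.08). Among exchange factor genes 0 of 47 tested passed, with 27 above 0 (57.4%, beside 47.3% of all genes) and a median of 0.02. The smallest p belonged to Trappc8, a subunit of the TRAPPIII complex that acts on Rab1, at 80.6 and 65.3 CPM (-0.29, SE 0.10, adjusted p = 0.196), followed by Ric1, part of the Rab6 exchange factor (0.30, SE 0.14). At an unadjusted p under 0.05 there were 2 of 47, beside 15.6% of all genes.

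Genes listed as GAPs gave a median of 0.0048, with 21 of 40 tested above 0 (52.5%, beside 47.3% of all genes). Past the threshold there were 0, beside 0.180% of all genes. In edgeR's test 1 had an unadjusted p under 0.05 (2.5%, beside 15.6%), a share below that of the whole table. That gene was Tbc1d23, which bridges golgins and endosome-derived vesicles, with 12.1, 12.0 and 11.2 CPM in sgNT and 17.0, 14.6 and 13.6 CPM in sgLTN1 (0.37, SE 0.13, adjusted p = 0.206). Tbc1d8 (0.27, SE 0.12) and Tbc1d7, a subunit of the TSC complex (-0.35, SE 0.17), came next. In the list of effectors and kinases, 11 of 52 had an unadjusted p under 0.05 in edgeR's test (21.2%, beside 15.6% of all genes). Of these, 7 were higher and 4 lower, beside 8.00% and 7.56% of all genes. None of the 52 passed over all genes, beside 0.180%, and whether the list differs from the whole table was not tested. The smallest p belonged to Mapk8ip3, the motor adaptor JIP3, which averaged 66.1 and 47.2 CPM (-0.49, SE 0.10, adjusted p = 0.0908). Rufy3, which links lysosomes to dynein, averaged 69.4 and 55.8 CPM (-0.31, SE 0.07, adjusted p = 0.117), and Mical3, a Rab8 effector, 25.4 and 33.9 CPM (0.41, SE 0.10, adjusted p = 0.126).

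The authors' deposited table gives an adjusted p to 2697 genes, whose mean normalized counts start at 309, and to 5 of the 53 Rab genes. It calls 0 of the 5, beside 8.42% of the 2697. At an unadjusted p under 0.05 the authors' deposited table has 2 of the 53 Rab genes, beside 5.41% of all genes with a p, Rab43 at a log2 fold change of -0.65 (p = 0.0256) and Rab18 at -0.33 (p = 0.0384), neither with an adjusted p.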

How the data were processed

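Ribosome profiling libraries of MIN6 cells, 3 per genotype, were grouped by the genotype in the labels and numbered by title, and all carry 1 batch label. The authors deposited whole-number read counts per gene, and a table that holds, per the file headers, DESeq2 results: the log2 fold change and its SE, the Wald statistic (a score), p-values before and after adjustment, and the mean normalized count (a signal level). Per the submitters' processing notes, the build is GRCm39 and the tools include STAR 2.7.11a, featureCounts 2.12.3, UMI-tools 1.1.2, DESeq2 1.38.3, fastp 0.23.4, SAMtools 1.9 and Bowtie2 2.5.4. For annotation, strand setting and reads with several alignments, nothing is given in the sources used here. Paralogues with like sequence can therefore exchange or lose reads.

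The analysis used edgeR 4.0.16 and limma 3.58.1 in R 4.3.3: filterByExpr left 12782 of 21652 genes, TMM scaling (factors 0.954 to 1.04), and the quasi-likelihood test with genotype as the only term. P-values were adjusted over all tested genes by Benjamini-Hochberg, with a threshold of 0.05. CPM are scaled by the same factors. SEs come from the test statistic and were not allowed below counting error, which set 6 of the 40 Rab values. The 95% intervals use a t distribution with those SEs. DESeq2 1.42.0 served as an alternative. The biological coefficient of variation was 8.92%. Every pair of replicate libraries differed by more than sampling noise (chi-square per degree of freedom at least 2.55), so none was merged as a repeat deposit. This does not show that they are separate cultures. The shallowest libraries were 1 and 3 of sgNT and 3 of sgLTN1.

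The fit was tested on simulated data before use, with 50 genes altered at each size. At an adjusted p under 0.05 it recovered 24% of those altered 1.3-fold, 64% at 1.5-fold and 88% at 2-fold. Small changes can therefore go uncalled. Alternatives were DESeq2, other scalings and filters, removal of the abundance trend, a replicate block and each library left out.

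The members, lists and tests were chosen with earlier results of these data known. Named are the members past the threshold (0), the 12 with the smallest p, the one with most counts in each role group, and the 3 genes with the smallest p in each related list, of which some are not reported here. The rule asked for counts per coding length. No coding lengths were used here, so counts were taken, and levels of different genes are not compared. Other members are named because the set consists of them. The comparison of Rab14 with other genes was made after its values were seen.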

Additional observations from a re-analysis of the deposited data

How the results depend on the processing

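No Rab gene with an adjusted p passed the threshold in any of the 13 alternatives (with DESeq2 only 5 of 53 had one), while the number called over all genes was 227 with DESeq2 (183 higher, 44 lower), 42 with scaling by total counts, 222 with no filter on low counts, 609 with the replicate block (406 higher, 203 lower) and 4 to 333 when 1 library was left out (4 without sgLTN1 library 2, 333 without sgLTN1 library 3). Rab genes at an unadjusted p under 0.05 numbered 4 of 40 in the main analysis (15.6% of all genes), 2 of 53 with DESeq2 (5.41%), 8 of 40 with scaling by total counts (16.9%) and 2 to 6 without 1 library, being 2 of 39 without sgLTN1 library 2 (9.52%) and 6 of 42 without sgLTN1 library 3 (18.8%). By direction, these were 0 higher and 8 lower with scaling by total counts, and 0 and 2 with DESeq2. There were 1 higher and 3 lower with the abundance trend removed, with no filter and without sgLTN1 library 1. The replicate block gave 1 and 4, and leaving out sgNT library 2 gave 2 and 2. The remaining alternatives had 0 higher. Members above 0 were 23 of 53 with DESeq2, 8 of 40 with scaling by total counts, 4 of 22 with a mean of at least 10 CPM, where fewer genes were tested, and 12 to 21 without 1 library. The members' median was -0.13 with scaling by total counts and ran from -0.11 to 0.010 without 1 library.

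Among the 17 Rab genes followed through the alternatives, signs turned only for genes near 0 in the main analysis. One of these, Rab14, also spread widely between libraries (SE 0.37). With DESeq2, Rab14 was 0.0067 and Rab1a 0.015. Rab1a was 0.0017 with RLE scaling and 0.013 without the filter, and Rab10 was -0.034 with scaling by total counts. Without 1 library, Rab14 ran from -0.69 to 0.28, Rab1a from -0.036 to 0.023, Rab5a from -0.13 to 0.035 and Rab7 from -0.063 to 0.040. The cause was not tested. The others of the 17 kept their direction in every alternative that could be run. Signs of the remaining Rab genes were not compared one by one.

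Whether library numbers shared between genotypes mark paired samples was not settled. Deviations of same-numbered libraries from their group means correlated at -0.05, 0.07 and 0.09. Libraries 2 and 3 of sgLTN1 correlated best with the sgNT library of the same number, and sgLTN1 library 1 with sgNT library 2. Correlations this weak cannot decide for or against pairing. With the replicate block the calls over all genes went from 23 to 609. In that fit 0 Rab genes were called and 5 of 40 had an unadjusted p under 0.05, beside 19% of all genes. Depth limits the 13 untested Rab genes, which held at most 51 counts over the 6 libraries.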

Other observations

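The uneven values of Rab14 were also seen in a few other genes, a comparison chosen after the Rab14 values were seen. Among the 2581 genes that averaged at least 50 CPM, 15 others had a Pearson correlation with Rab14 above 0.9 over log2(CPM + 1) in the 6 libraries. Of these, 5 spanned at least 2-fold from lowest to highest library. The rest varied less, down to 1.08-fold for Ank2 and Blnk. With only 6 points unrelated genes can also pass 0.9, and whether 15 exceeds their number was not tested. Dnajc1, an ER membrane cochaperone, read 726, 338 and 315 CPM in sgNT and 179, 202 and 735 CPM in sgLTN1. The olfactory receptor gene Or8g30 read 117, 40.3 and 42.3 CPM against 25.3, 37.4 and 132 CPM, and the cell adhesion gene Dscaml1 92.8, 38.6 and 45.9 CPM against 20.2, 26.7 and 113 CPM. Like Rab14, these 3 were highest in sgLTN1 library 3, next in sgNT library 1 and lowest in sgLTN1 library 1. Nopchap1, which spanned 2.39-fold, shared the highest libraries but was lowest in sgLTN1 library 2, at 42.9 CPM beside 43.9 CPM in library 1. Chd1 spanned 6.06-fold, and its values by library are not reported here. The points share libraries and depth, so the correlations are descriptions of these 6 libraries, and what the genes share was not tested.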
